A study of Sus scrofa with 8 samples.

Results

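Integrins and laminins were followed through 38 genes of pig limb muscle, out of 22516 rows of a bulk RNA sequencing count table. The genes were taken by name alone: every row whose symbol begins with ITGA or ITGB, apart from ITGBL1, or is LAMA, LAMB or LAMC followed by a number. They comprised 17 integrin alpha chains, 8 integrin beta chains, 11 laminin chains and 2 proteins that bind the tail of integrin beta1 and share its prefix (ITGB1BP1 and ITGB1BP2). All 38 passed the filter on low counts. LAMA2, the alpha chain of the main muscle laminin, was not analysed here. The tissue came from pig embryos, either wild type or labelled MYF5/MYOD/MYF6 knockout. Those genes encode transcription factors that commit embryonic cells to skeletal muscle. The series title speaks of a knockdown and the sample labels of a knockout. Each genotype was sampled on embryonic days 41 (E41) and 62 (E62), with 2 libraries in each of the 4 groups. Libraries are written WT for wild type and KO for knockout, with their stage. The labels call the replicates biological but give no litter, clone of origin or deleted sequence, and p-values therefore reflect only how much these libraries vary. Every group has a number of its own in its library names, and only wild-type E41 names carry the code LHL in place of RHL, so a litter, a preparation or, for wild-type E41, the limb cannot be told apart from the group.

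Integrins are cell surface receptors made of 1 alpha and 1 beta chain, and the pairing decides what a cell can hold on to. Laminins are trimers of 1 alpha, 1 beta and 1 gamma chain, and they form the sheet of basement membrane that wraps each muscle fibre, vessel, nerve sheath and epithelium. In muscle, the receptor of ITGA7 and ITGB1 and the dystroglycan complex tie the fibre to that sheet. Chains differ by tissue: LAMA4 belongs to vessels, while LAMA3 and LAMB3 are part of the laminin that anchors epidermis through the receptor of ITGA6 and ITGB4. Some integrins bind collagen or fibronectin in loose connective tissue, and those that pair with ITGB2 or ITGB7 belong mostly to leukocytes.

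Wild-type libraries held 23402052 to 37676855 counts and knockout libraries 42352383 to 60539245. Every knockout library was deeper than every wild-type library, so depth cannot be told apart from genotype. MYF5 and MYF6 had 0 counts in all 4 knockout libraries, and MYOD1 kept 20 to 88 counts against 1503 to 5715 in wild type. The summed level of 13 markers of differentiated muscle was 19000 to 52820 CPM in wild type and 16.4 to 31.5 CPM in the knockout, so the tissue labelled as limb muscle carried almost no muscle transcripts in the knockout. CPM is the count relative to the TMM-scaled library total, a scaling that balances libraries on genes taken not to change. It does not correct for transcript length, so levels are compared between groups for the same gene and not between genes. The KO E62 pair of replicates correlated least (Pearson's r of log CPM over genes 0.967, against 0.972 to 0.987 in the other groups). The 12 epidermal markers summed to 1185 CPM in KO E62 replicate 1 and to 25.2 CPM in replicate 2, and the 9 cartilage markers to 4418 CPM in KO E41 replicate 2 and 375 CPM in replicate 1. Since the samples are bulk tissue, fewer cells of a type and less RNA per cell cannot be told apart.

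**Figure D1:**
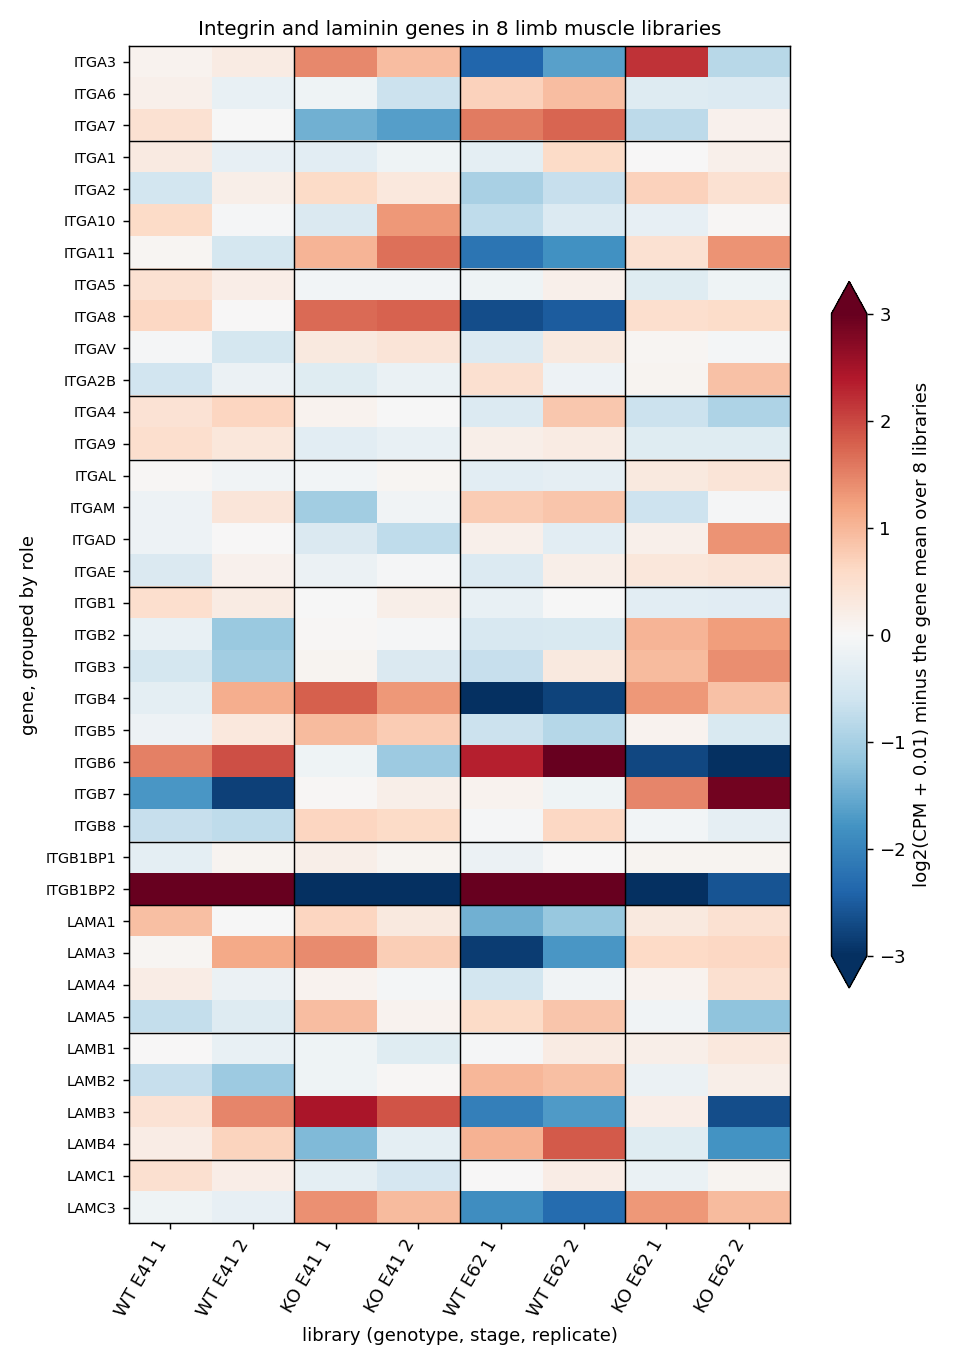
Level of integrin and laminin genes (rows, grouped by role) in each of the 8 libraries (columns), as log2 CPM minus the mean of the gene over all libraries; red is above the mean, blue below, and colours stop at 3 in either direction. ITGB1BP2, ITGB6 and ITGA7 are lower in the knockout columns, LAMC3, ITGA8 and ITGA11 are higher, and ITGA3 and LAMB3 differ between the 2 KO E62 libraries.

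At E41, 13 of the 38 genes (34.2%) passed the edgeR test between genotypes at an adjusted p under 0.05, against 39.2% of all 17020 genes tested. ITGA8, ITGA11, ITGB5, ITGB7, ITGB8, LAMB2 and LAMC3 were higher in the knockout (7 genes, against 18.5% of all genes), and ITGA5, ITGA7, ITGA9, ITGB6, ITGB1BP2 and LAMC1 were lower (6 genes, against 20.8%). At E62, 21 of the 38 (55.3%) passed, against 47.2% of all genes, with 13 higher and 8 lower (21.0% and 26.2% of all genes). The median log2 change of the 38 genes was 0.15 at E41 and 0.39 at E62, beside 0.09 and 0.06 over all genes tested. Neither share stood far from that of all genes. Scaling by library size alone moved the all-gene median up by 0.289 at E41 and by 0.304 at E62, and the split of calls at E41 became 12 higher and 5 lower. Without KO E41 replicate 2 the E41 split was 4 higher and 2 lower, and without WT E41 replicate 1 it was 6 higher and 3 lower.

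**Figure D2:**
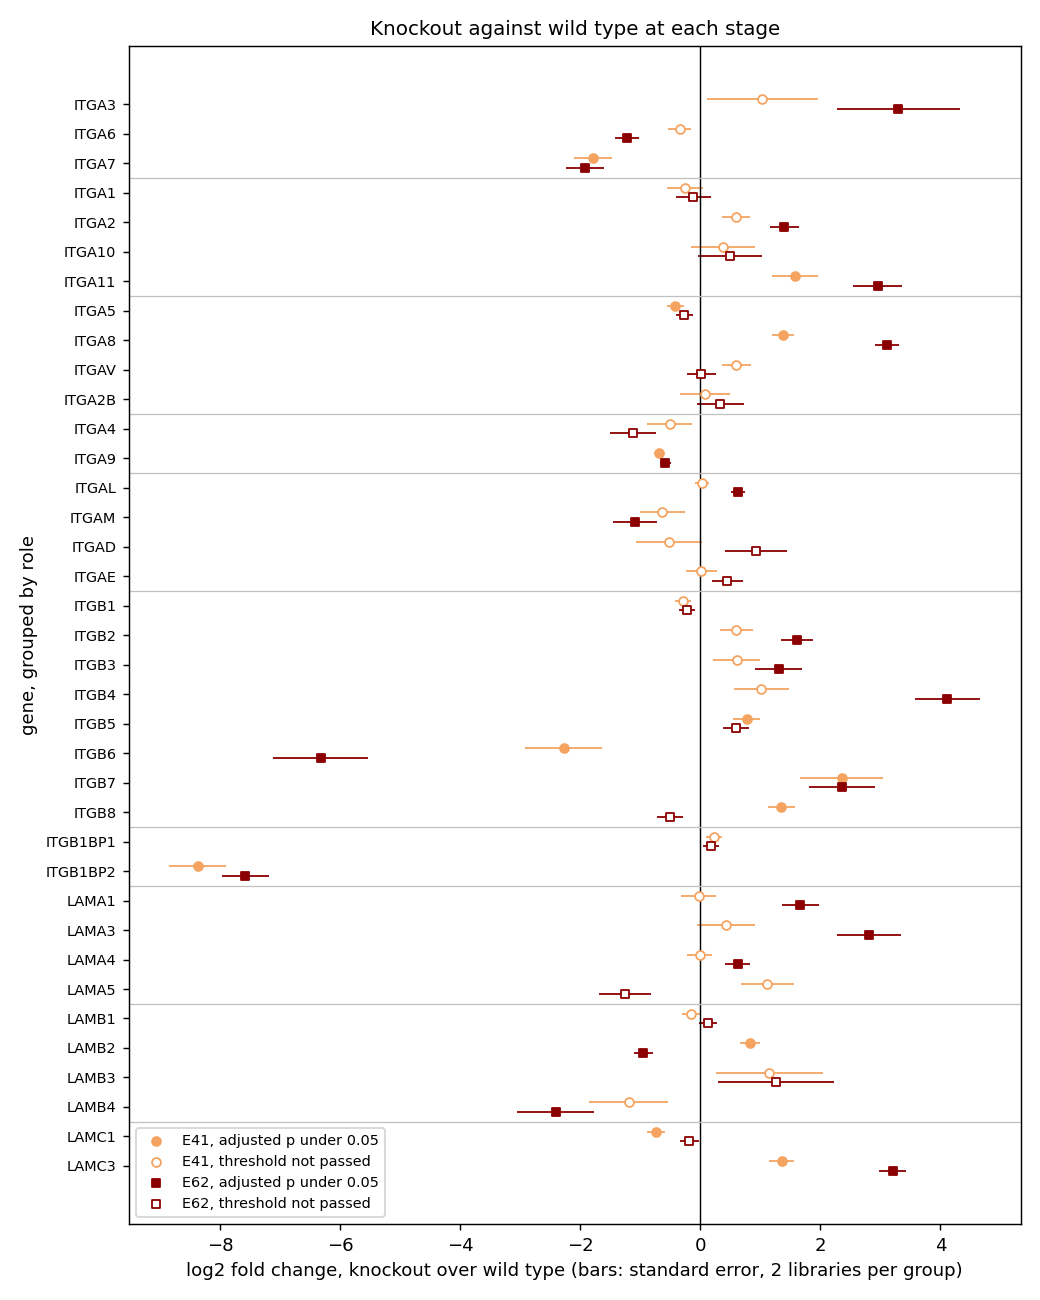
Log2 fold change of knockout over wild type for integrin and laminin genes at E41 (orange circles) and E62 (dark red squares), with bars for the standard error; filled symbols passed the threshold of adjusted p under 0.05 and open symbols did not. ITGB1BP2 and ITGB6 lie farthest to the left, ITGB4 lies farthest to the right at E62, and LAMB2 has filled symbols on both sides of 0.

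ITGB1BP2 encodes melusin, a striated muscle protein that binds the tail of integrin beta1 and is known for its part in the response to mechanical load. Its RefSeq gene lies at chrX:57316490-57321614 (Sscrofa11.1). It stood at 35.1 and 38.4 CPM in the wild-type libraries at E41 and at 0.172 and 0.0434 CPM in the knockout, which rested on 8 and 2 counts. At E62 wild type had 67.8 and 110.3 CPM and the knockout 0.369 and 0.567 CPM. The groups lay far apart at both stages. The log2 change was -8.37 ± 0.47 at E41 (standard error, n = 2 libraries per group; adjusted p = 5.34e-05) and -7.58 ± 0.39 at E62 (adjusted p = 1.82e-05), sizes that depend on the few knockout counts. ITGB1BP1, a widely expressed inhibitor of integrin beta1, lay between 25.8 and 35.6 CPM in all 8 libraries and passed neither test.

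ITGA7 is the laminin-binding alpha chain of skeletal, heart and smooth muscle, at chr5:21126565-21150875. Wild-type libraries had 96.3 and 69.8 CPM at E41 and 208 and 234 CPM at E62. Knockout libraries kept 25.8 and 22.3 CPM at E41 and 40.4 and 76.8 CPM at E62, all below the wild-type libraries of the same stage. The change was -1.79 ± 0.32 at E41 (adjusted p = 0.00681) and -1.92 ± 0.32 at E62 (adjusted p = 0.00387), a 3.45-fold and a 3.78-fold lower level. Without KO E41 replicate 2 the E41 call was lost (adjusted p = 0.0542, from 1.36e-09 over all alternatives). ITGA7 thus kept a share of its transcripts where the muscle markers fell by a median log2 change of -11.08 at E41 (13 of 13 lower) and -11.43 at E62 (13 of 13 lower). The 11 markers of smooth muscle and pericytes, cells that also use ITGA7, summed to 819 to 852 CPM in the knockout at E41 against 1588 to 1829 CPM in wild type, and to 833 to 1001 against 2152 to 2294 CPM at E62. Of them, 5 were lower and 1 higher at E41 (20.8% and 18.5% of all genes), and 6 lower and 2 higher at E62 (26.2% and 21.0% of all genes). Their part in the ITGA7 values was not tested.

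ITGA6, which pairs with ITGB1 or ITGB4 to bind laminin, was lower in the knockout at E62. Its libraries read 154 and 119.8 CPM in wild type and 127 and 88.5 CPM in the knockout at E41, where the groups overlapped (-0.34 ± 0.19, adjusted p = 0.192). At E62 wild type had 225 and 265 CPM and the knockout 106 and 104 CPM, with no overlap (-1.22 ± 0.19, adjusted p = 0.00185). ITGA9, a receptor for tenascin and VCAM1, fell by a smaller and steadier amount. It went from 152 and 134 CPM in wild type to 86.2 and 92.0 CPM in the knockout at E41 (-0.69 ± 0.09, adjusted p = 0.00107) and from 119.5 and 126 to 82.2 and 82.3 CPM at E62 (-0.58 ± 0.09, adjusted p = 0.00158). ITGA4, of the same class, changed by -0.51 ± 0.38 and -1.12 ± 0.38 and passed neither edgeR test (adjusted p = 0.333 and 0.0549). At E62 its libraries read 48.2 and 112.5 CPM in wild type and 40.6 and 33.3 CPM in the knockout, with no overlap. DESeq2 called ITGA4 lower at E62 (-1.08, adjusted p = 0.00143).

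ITGB1, the beta chain shared by most of these receptors, passed neither genotype test. It ranged from 875 to 1045 CPM in wild type and 739.7 to 836 CPM in the knockout at E41, and from 639 to 735 and 583 to 596 CPM at E62, with no overlap at either stage. ITGA5, the fibronectin receptor alpha chain, had 305 and 253 CPM in wild type and 208 and 210 CPM in the knockout at E41 (-0.42 ± 0.14, adjusted p = 0.0474). That call was lost without any one of the 4 E41 libraries: adjusted p = 0.306 and 0.0505 without WT E41 replicates 1 and 2, and 0.168 and 0.157 without KO E41 replicates 1 and 2 (0.021 to 0.469 over all alternatives). It was also lost with relative log expression factors, with library size alone and with a filter of 1 CPM in 4 libraries.

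ITGB6 pairs with ITGAV to bind fibronectin and to release TGF-beta from its latent form, and is known mostly from epithelia. Its libraries read 12.1 and 16.4 CPM in wild type and 3.875 and 1.997 CPM in the knockout at E41. At E62 wild type had 21.5 and 40.2 CPM and the knockout 0.634 and 0.117 CPM, or 43 and 7 counts. The groups did not overlap at either stage. The log2 change was -2.28 ± 0.65 at E41 (adjusted p = 0.037) and -6.32 ± 0.79 at E62 (adjusted p = 0.00152), and the effect differed between stages (-4.04 ± 0.96, adjusted p = 0.0293). The E41 call was lost without WT E41 replicate 1 (adjusted p = 0.0868), WT E41 replicate 2 (0.133), KO E41 replicate 1 (0.0862) or KO E41 replicate 2 (0.18), and with no low-count filter (0.0547), over a range from 0.00414 to 0.18. The difference between stages was lost without WT E41 replicate 1 (0.0928), WT E41 replicate 2 (0.0747), KO E41 replicate 1 (0.1), KO E41 replicate 2 (0.0541) or WT E62 replicate 2 (0.0682), over a range from 0.00372 to 0.1. KO E62 replicate 1, with 1185 CPM of epidermal markers, had 0.634 CPM of ITGB6, and replicate 2, with 25.2 CPM of them, had 0.117 CPM. The WT E62 libraries, with 32.99 and 36.98 CPM of these markers, had the highest ITGB6 levels of all. Within each group the library with more epidermal marker transcripts also had more ITGB6. The part of epidermal cells in the ITGB6 values was not tested.

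**Figure D3:**
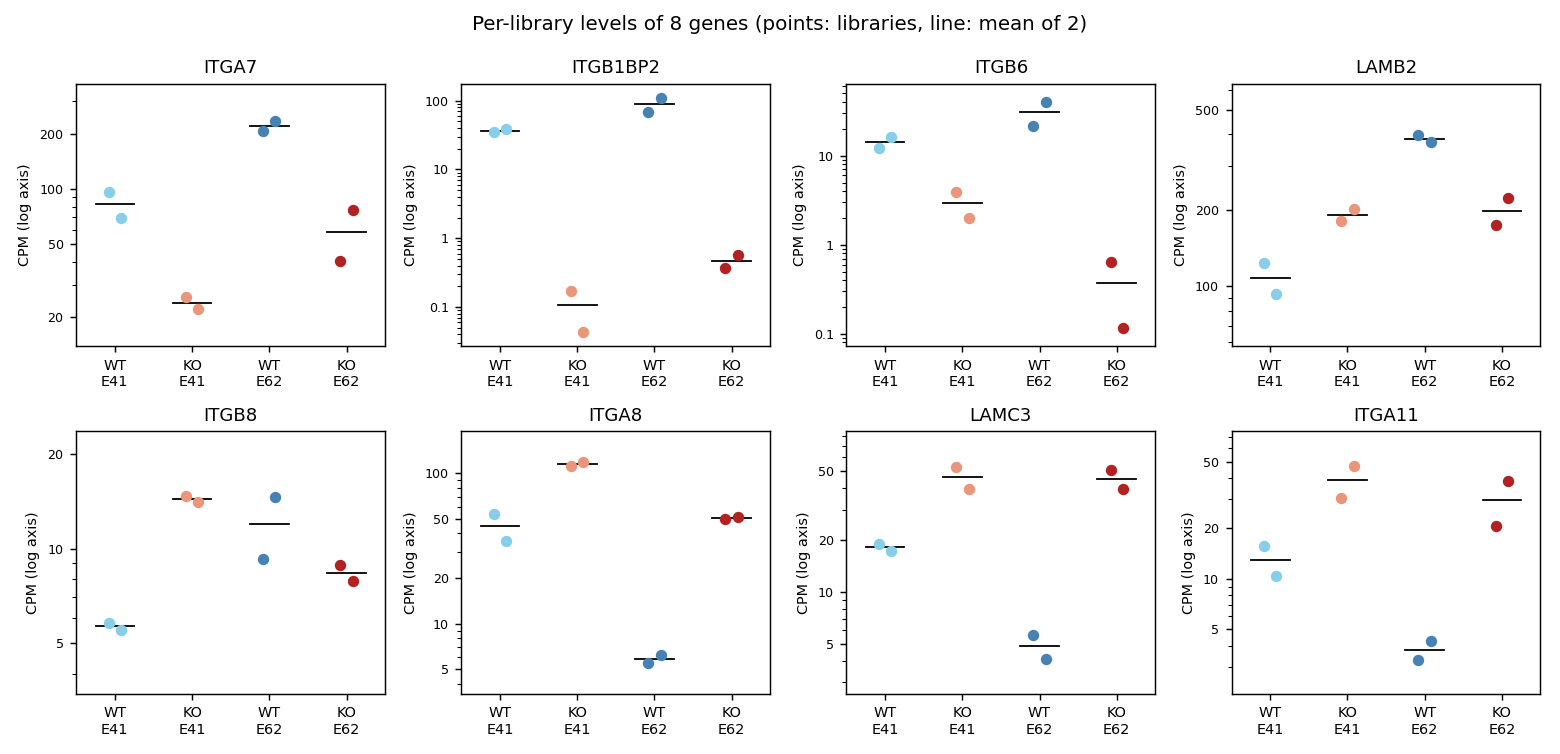
CPM (log axis) of 8 genes in wild type (WT) and knockout (KO) at E41 and E62; points are libraries and lines the mean of 2. ITGA7, ITGB1BP2 and ITGB6 are lower in the knockout at both stages, ITGA8, LAMC3 and ITGA11 are higher at both, LAMB2 is higher at E41 and lower at E62, and ITGB8 is higher at E41.

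ITGA8, the receptor chain for nephronectin and fibronectin found on mesenchymal and smooth muscle cells (chr10:46132887-46303659), was higher in the knockout. Wild type had 54.1 and 35.3 CPM at E41 and 5.47 and 6.18 CPM at E62. The knockout had 113 and 119 CPM and then 49.5 and 51.1 CPM, above wild type at each stage. The log2 change was 1.38 ± 0.18 at E41 (adjusted p = 0.00118) and 3.11 ± 0.20 at E62 (adjusted p = 2.3e-05), and the difference between the stages also passed (1.73 ± 0.26, adjusted p = 0.00406). Levels fell from E41 to E62 in both genotypes, with log2 changes of -2.94 in wild type and -1.20 in the knockout. These 5 calls on ITGA8 held in every alternative run.

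ITGA11, the fibrillar collagen receptor chain of fibroblasts, followed the same direction with more spread. It read 15.8 and 10.4 CPM in wild type and 30.2 and 47.4 CPM in the knockout at E41, and 3.31 and 4.27 against 20.6 and 38.1 CPM at E62. The change was 1.57 ± 0.39 (adjusted p = 0.0206) and 2.95 ± 0.41 (adjusted p = 0.00182), and the effects were not shown to differ between stages (adjusted p = 0.115). Without WT E41 replicate 2 or KO E41 replicate 2 the E41 call was lost (adjusted p = 0.107 and 0.085, from 3.74e-05 over all alternatives). The 10 fibroblast markers summed to 50490 to 54560 CPM in the knockout at E41 against 23240 to 38940 CPM in wild type. At E62 they summed to 86780 to 92900 against 26630 to 46920 CPM. Of these markers 6 were higher at E41 and 8 at E62, where 18.5% and 21.0% of all genes were. Their part in the ITGA8 and ITGA11 values was not tested.

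Of the other collagen-binding chains, ITGA2 was called higher in the knockout at E62. It had 22.4 and 36.5 CPM in wild type and 48.3 and 40.4 CPM in the knockout at E41 (0.59 ± 0.23, adjusted p = 0.086), and 16.7 and 20.2 against 52.7 and 44.7 CPM at E62 (1.40 ± 0.24, adjusted p = 0.00291). The groups did not overlap at either stage. DESeq2 called ITGA2 higher at E41 too (0.59, adjusted p = 0.0333), as did edgeR with library size alone (0.0203). The ITGA2 effects were not shown to differ between stages (0.81 ± 0.33, adjusted p = 0.114). ITGA1, which binds basement membrane collagen, lay between 28.8 and 53.2 CPM in all libraries with overlap at both stages, and ITGA10, a cartilage chain, between 4.33 and 18.0 CPM; neither passed a test. The highest ITGA10 level was in KO E41 replicate 2, the library with the most cartilage marker transcripts.

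Among the chains that pair with ITGAV, ITGB8 and ITGB5 were higher in the knockout at E41. ITGB8, which releases active TGF-beta, read 5.80 and 5.53 CPM in wild type and 14.7 and 14.1 CPM in the knockout at E41 (1.35 ± 0.22, adjusted p = 0.00278). At E62 it read 9.26 and 14.6 against 8.88 and 7.88 CPM (-0.51 ± 0.22, adjusted p = 0.0862). The effects differed between stages by -1.86 ± 0.31 (adjusted p = 0.00528), since the level rose in wild type from E41 to E62 (1.08 ± 0.22, adjusted p = 0.0077) and fell in the knockout (-0.78 ± 0.22, adjusted p = 0.0298). The fall in the knockout lost its call without KO E41 replicate 1 (adjusted p = 0.135), KO E41 replicate 2 (0.103), KO E62 replicate 1 (0.0545) or KO E62 replicate 2 (0.119), over a range from 0.0154 to 0.135. ITGB5, a vitronectin receptor chain, had 144 and 199.5 CPM in wild type and 312 and 274 CPM in the knockout at E41 (0.77 ± 0.22, adjusted p = 0.0297). At E62 it had 102 and 88.7 against 172 and 117 CPM, also without overlap (0.60 ± 0.22, adjusted p = 0.0605). The ITGB5 effects were not shown to differ between stages (-0.175 ± 0.31, adjusted p = 0.712). DESeq2 called ITGB5 higher at E62 (0.63, adjusted p = 0.00687). So did edgeR with relative log expression factors (adjusted p = 0.0449), library size alone (0.0134) or a filter of 1 CPM in 4 libraries (0.0375). Its E41 call was lost without WT E41 replicate 1 (0.117), KO E41 replicate 1 (0.135) or KO E41 replicate 2 (0.0719), over a range from 0.001 to 0.135. ITGAV itself lay between 55.2 and 104 CPM and passed neither genotype test in edgeR (0.60 ± 0.24 at E41, adjusted p = 0.0889). Its E41 groups did not overlap, at 77.0 and 55.2 CPM in wild type and 96.7 and 103.9 CPM in the knockout. DESeq2 called ITGAV higher at E41 (0.60, adjusted p = 0.0271), as did edgeR with library size alone (0.017) or only the groups compared (0.0474).

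LAMB2, the beta chain of the neuromuscular junction and of mature basement membranes (chr13:31738282-31750623), was called in opposite directions at the 2 stages. At E41 wild type had 123 and 92.9 CPM and the knockout 181 and 203 CPM, all above wild type (0.83 ± 0.17, adjusted p = 0.00612). At E62 wild type had 396 and 371 CPM and the knockout 175 and 223 CPM, all below wild type (-0.95 ± 0.16, adjusted p = 0.00249). The wild-type level rose 3.55-fold between the stages (1.83 ± 0.17, adjusted p = 0.000399), while the knockout level changed by 0.05 ± 0.16 (adjusted p = 0.833). The difference of the genotype effects was -1.78 ± 0.23 (adjusted p = 0.00227), and all 4 calls held in every alternative run.

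LAMC3, a gamma chain of nerve, vessel and brain surface basement membranes (chr1:271004423-271071223), was higher in the knockout at both stages. Its libraries read 18.9 and 17.3 CPM in wild type and 53.1 and 39.4 CPM in the knockout at E41. At E62 they read 5.62 and 4.12 against 50.6 and 39.3 CPM. The 4 knockout libraries stayed within 39.3 to 53.1 CPM while wild type fell, so the gap widened. The change was 1.36 ± 0.21 (adjusted p = 0.00212) and then 3.20 ± 0.22 (adjusted p = 3.47e-05), with a difference between stages of 1.85 ± 0.29 (adjusted p = 0.00484) and a fall within wild type of -1.89 ± 0.22 (adjusted p = 0.000927). All 4 calls held in every alternative run.

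LAMA1, the alpha chain of early embryonic basement membranes, was higher in the knockout at E62. It had 19.7 and 10.4 CPM in wild type and 16.6 and 12.9 CPM in the knockout at E41, with overlap. At E62 wild type had 3.88 and 4.77 CPM and the knockout 12.9 and 14.6 CPM (1.67 ± 0.30, adjusted p = 0.00337). The wild-type level changed by -1.80 ± 0.31 from E41 to E62 (adjusted p = 0.00377), and the effects differed between stages (1.70 ± 0.42, adjusted p = 0.0229). That difference was lost without KO E41 replicate 2 (adjusted p = 0.0813), WT E62 replicate 1 (0.0915) or WT E62 replicate 2 (0.0565), over a range from 0.000821 to 0.0915.

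Among chains of widespread laminins, LAMC1 was lower at E41 and LAMA4 higher at E62. LAMB1 lay between 533 and 859 CPM in all 8 libraries and passed neither genotype test. LAMC1 had 884 and 732 CPM in wild type and 518 and 451 CPM in the knockout at E41 (-0.74 ± 0.15, adjusted p = 0.00757), a call lost without WT E41 replicate 1 or KO E41 replicate 2 (adjusted p = 0.0604 and 0.0656, from 2.61e-05 over all alternatives). At E62 its groups overlapped, at 644 and 744 against 551 and 672 CPM. LAMA4, the vessel chain, overlapped at E41 and at E62 read 312 and 426 CPM in wild type and 491 and 642 CPM in the knockout (0.62 ± 0.21, adjusted p = 0.0404). This call was lost without WT E62 replicate 1 or KO E62 replicate 2 (adjusted p = 0.216 and 0.185) and with only the groups compared (0.0634), from 0.00332 over all alternatives. The 11 endothelial markers summed to 1086 and 1745 CPM in the knockout at E62 against 934 to 961 CPM in wild type. Of them 5 were higher, where 21.0% of all genes were. The higher of these sums came from KO E62 replicate 2, which also had the highest LAMA4 level. At E41 the markers summed to 1043 to 1162 CPM in the knockout against 725 to 886.5 CPM in wild type. There 4 of 11 were higher (18.5% of all genes), and LAMA4 changed by -0.010 ± 0.205 (adjusted p = 0.975). The part of endothelial cells in the LAMA4 values was not tested.

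LAMA5, the alpha chain that replaces LAMA1 in most mature basement membranes, passed neither genotype test in edgeR but did pass the test of the difference between stages. It read 23.8 and 29.9 CPM in wild type and 74.3 and 42.1 CPM in the knockout at E41 (1.12 ± 0.44, adjusted p = 0.0992). At E62 it read 58.0 and 69.7 against 36.6 and 16.8 CPM (-1.26 ± 0.44, adjusted p = 0.0616). Groups did not overlap at either stage and changed order between them (-2.37 ± 0.62, adjusted p = 0.041). Left-out libraries ended that call: WT E41 replicate 1 (adjusted p = 0.115), WT E41 replicate 2 (0.088), KO E41 replicate 1 (0.11), WT E62 replicate 1 (0.0892) or WT E62 replicate 2 (0.109), as did the lack of a low-count filter (0.061), over a range from 2.12e-05 to 0.115. DESeq2 called LAMA5 at both stages, higher at E41 (1.12, adjusted p = 0.0045) and lower at E62 (-1.22, adjusted p = 0.00132). Without KO E62 replicate 1 the E62 change was -1.93 and passed (adjusted p = 0.012, over a range from 0.00132 to 0.195). LAMB4, a little-studied beta chain, was scarce, with 11 to 81 counts per library, and was lower in the knockout at E62 (-2.41 ± 0.64, adjusted p = 0.0161), a call lost without WT E62 replicate 2 or KO E62 replicate 2 (adjusted p = 0.0891 and 0.0649, from 0.00411 over all alternatives).

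LAMA3, LAMB3, ITGA3 and ITGB4 differed in whether they followed the epidermal markers in KO E62 replicate 2, a single library. In WT E62, where the markers were low too, all of these genes were below their E41 levels. In the E41 libraries and in KO E62 replicate 1 these markers summed to 781 to 1694 CPM, and in the other 3 libraries to 25.2 to 36.98 CPM. LAMB3 had 9.85 CPM in KO E62 replicate 1 and 1.35 CPM in replicate 2, and ITGA3, an epithelial laminin receptor chain, 37.5 and 4.66 CPM. Wild-type E62 levels were 2.08 and 2.62 CPM for LAMB3 and 1.59 and 2.68 CPM for ITGA3. The 2 knockout libraries therefore lay on either side of wild type for LAMB3 and differed several-fold for both genes. LAMB3 changed by 1.15 ± 0.89 at E41 and 1.26 ± 0.96 at E62, with neither test passed (adjusted p = 0.358 and 0.329). Without KO E62 replicate 1 the E62 change of LAMB3 became -0.80.

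ITGA3 passed at E62 (3.30 ± 1.02, adjusted p = 0.0466) and not at E41 (1.03 ± 0.93, adjusted p = 0.426). Its E62 change was 1.11 without KO E62 replicate 1 (adjusted p = 0.0328), and the call was lost without WT E62 replicate 1 or 2 (adjusted p = 0.218 and 0.152), with no low-count filter (0.0724) and with only the groups compared (0.109), from 9.7e-05 over all alternatives. From E41 to E62 within the knockout ITGA3 changed by 0.13 ± 0.90, and by -2.05 without KO E62 replicate 1 (adjusted p = 0.00724, over a range up to 0.96).

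ITGB4 and LAMA3 were high in both knockout libraries at E62. ITGB4, the beta chain of hemidesmosomes and of the Schwann cell laminin receptor (chr12:5651292-5685601), had 12.6 and 32.9 CPM in wild type and 54.2 and 38.2 CPM in the knockout at E41 (1.02 ± 0.46, adjusted p = 0.134). At E62 it had 1.59 and 2.24 CPM in wild type and 38.0 and 28.5 CPM in the knockout (4.11 ± 0.54, adjusted p = 0.00191), the largest rise among the 38 genes. LAMA3 had 26.5 and 55.7 against 68.0 and 42.6 CPM at E41 (0.43 ± 0.48, adjusted p = 0.527) and 3.55 and 7.57 against 38.8 and 39.2 CPM at E62 (2.81 ± 0.53, adjusted p = 0.00796). KO E62 replicate 2 thus held 28.5 CPM of ITGB4 and 39.2 CPM of LAMA3 with 25.2 CPM of epidermal markers, below the 32.99 and 36.98 CPM of wild type. Without KO E62 replicate 1 the changes were 3.89 for ITGB4 (adjusted p = 0.00798) and 2.81 for LAMA3 (adjusted p = 0.0266). These compare with ranges over all alternatives of 2.03e-24 to 0.0228 and 1.86e-12 to 0.0369.

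The ITGB4 effect grew between the stages (3.10 ± 0.69, adjusted p = 0.0246), and that of LAMA3 was not shown to (2.38 ± 0.70, adjusted p = 0.0582). The call on ITGB4 was lost without KO E41 replicate 1 (adjusted p = 0.0631), KO E41 replicate 2 (0.0893), WT E62 replicate 1 (0.0957), WT E62 replicate 2 (0.0694) or KO E62 replicate 1 (0.0651), over a range from 2.22e-07 to 0.0957. Of 8 Schwann cell markers, 1 was higher and 2 were lower at E62 (21.0% and 26.2% of all genes). Their sum was 70.4 to 79.0 CPM in the knockout against 510.0 to 530.5 CPM in wild type, mostly ERBB3. The median log2 change of the 8 markers was -0.47 at E62. SOX10, 1 of these Schwann cell markers, had 5.09 and 5.22 CPM in the knockout and 7.999 and 8.72 CPM in wild type at E62. The part of these cells in the ITGB4 values was not tested.

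**Figure D4:**
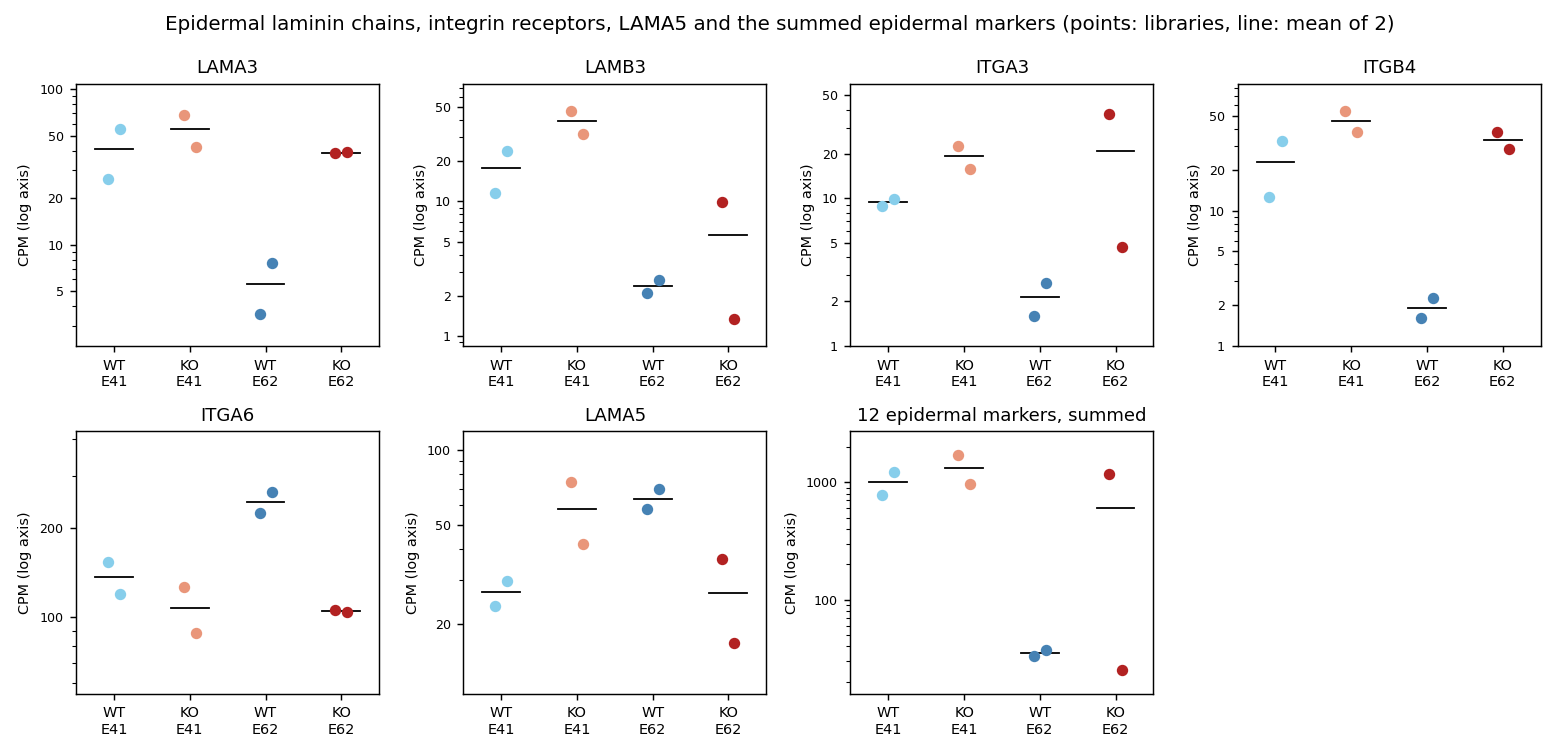
CPM (log axis) of the epidermal laminin chains LAMA3 and LAMB3, of ITGA3, ITGB4, ITGA6 and LAMA5, and of 12 epidermal markers summed, by genotype and stage; points are libraries and lines the mean of 2. In KO E62 the summed markers are at 1185 and 25.2 CPM; LAMB3 and ITGA3 split the same way, while LAMA3 (38.8 and 39.2 CPM) and ITGB4 (38.0 and 28.5 CPM) do not.

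Of 6 integrin chains known from leukocytes, ITGB2, ITGAL and ITGB7 were higher in the knockout at E62, ITGAM was lower, and ITGAD and ITGAE did not pass. ITGA4, grouped above with ITGA9, is not among the 6. It changed by -1.12 ± 0.38 at E62 (adjusted p = 0.0549 in edgeR and 0.00143 in DESeq2). ITGB2, the beta chain of the leukocyte-specific receptors, had 5.89 and 3.18 CPM in wild type and 7.08 and 6.66 CPM in the knockout at E41 (0.60 ± 0.27, adjusted p = 0.118), and 4.93 and 5.01 against 14.0 and 16.3 CPM at E62 (1.61 ± 0.27, adjusted p = 0.00207). ITGAL, its partner on lymphocytes and other leukocytes, had 12.9 and 13.2 against 19.7 and 20.8 CPM at E62 (0.63 ± 0.12, adjusted p = 0.00304). ITGAM, its partner on macrophages and neutrophils, went the other way, with 5.98 and 6.27 CPM in wild type and 2.30 and 3.45 CPM in the knockout (-1.09 ± 0.37, adjusted p = 0.0405). The ITGAM call was lost without WT E62 replicate 1 (adjusted p = 0.109), WT E62 replicate 2 (0.121) or KO E62 replicate 1 (0.157), and with library size alone (0.105), over a range from 0.0177 to 0.157. All 15 leukocyte markers were higher in the knockout at E62 (median log2 change 2.03), where 21.0% of all genes were. Their sum was 928 to 947 CPM against 207 to 234 CPM in wild type. At E41 4 were higher and 1 lower (18.5% and 20.8% of all genes), at 339 to 349 against 180 to 322 CPM. How much of the integrin values these cells account for was not tested.

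ITGB7, a beta chain of gut-homing lymphocytes, was scarce and higher in the knockout at both stages. It had 0.193 and 0.0885 CPM in wild type, or 4 and 2 counts, and 0.689 and 0.760 CPM in the knockout at E41, and 0.722 and 0.618 against 1.86 and 5.06 CPM at E62. The change was 2.35 ± 0.69 (adjusted p = 0.0295) and 2.36 ± 0.55 (adjusted p = 0.00898). Any left-out E41 library ended the E41 call (adjusted p = 0.0598 and 0.14 without WT E41 replicates 1 and 2, 0.0757 and 0.0894 without KO E41 replicates 1 and 2), as did WT E62 replicate 2 or KO E62 replicate 2 at E62 (0.056 and 0.0614). Over all alternatives these ran from 0.0165 to 0.14 and from 0.000993 to 0.0614.

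ITGB3, the chain of platelets, osteoclasts and growing vessels, had 30.04 and 59.5 CPM in wild type and 94.0 and 128 CPM in the knockout at E62 (1.31 ± 0.39, adjusted p = 0.0369), and 33.9 and 23.8 against 51.8 and 36.0 CPM at E41 (0.61 ± 0.39, adjusted p = 0.271). Without WT E62 replicate 1 (adjusted p = 0.106), KO E62 replicate 1 (0.0575) or KO E62 replicate 2 (0.135) its call was lost, as it was with no low-count filter (0.0537) or only the groups compared (0.0615), over a range from 9.72e-05 to 0.135. Its platelet partner ITGA2B stayed at 1.21 to 3.32 CPM and passed no test. Of 4 platelet markers tested 2 were lower at E62, where 26.2% of all genes were lower and 47.2% passed in either direction. ITGAD and ITGAE, with at most 1.78 and 9.84 CPM, passed no genotype test.

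**Figure D5:**
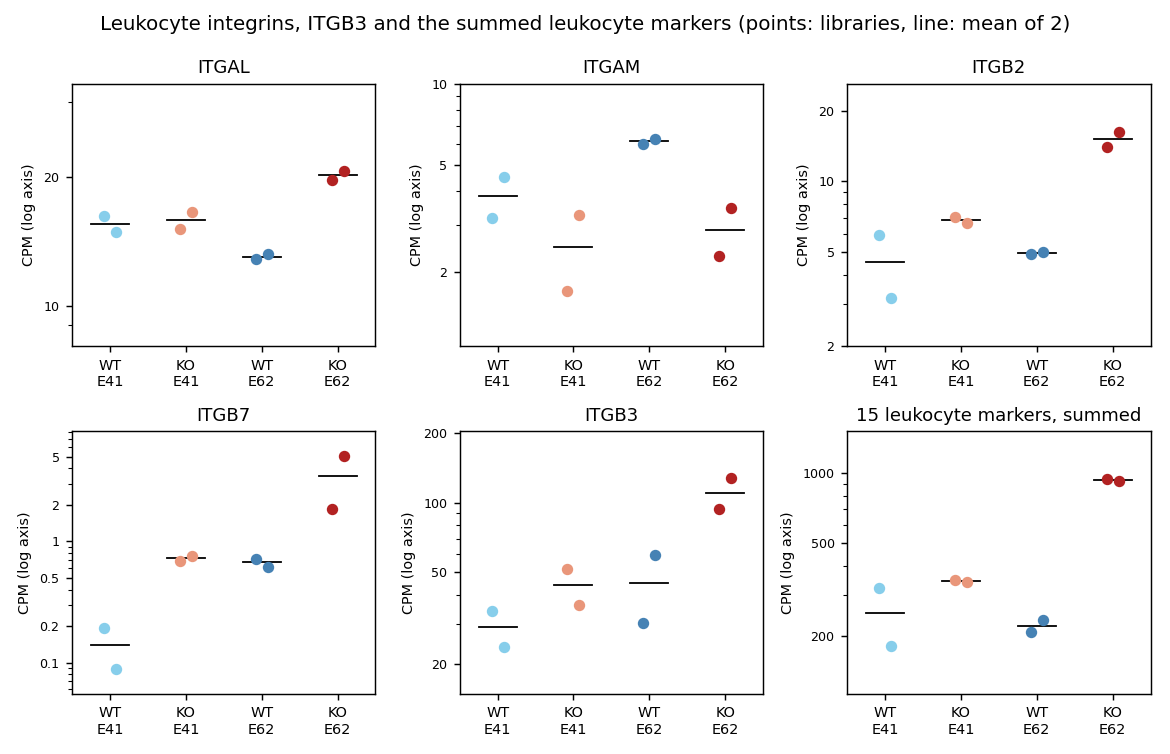
CPM (log axis) of ITGAL, ITGAM, ITGB2, ITGB7 and ITGB3 and of 15 leukocyte markers summed, by genotype and stage; points are libraries and lines the mean of 2. The summed markers reach 928 to 947 CPM in KO E62; ITGB2 and ITGAL are highest there and ITGAM is not.

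Between E41 and E62 the wild-type tissue changed 14 of the 38 genes (36.8%, against 39.8% of all genes), with 6 higher and 8 lower (19.8% and 20.0% of all genes). The rises were of ITGA6, ITGA7, ITGB1BP2, ITGB7, ITGB8 and LAMB2, and the falls of ITGA8, ITGA11, ITGB1, ITGB4, ITGB5, LAMA1, LAMA3 and LAMC3. ITGA7 rose by 1.42 ± 0.32 (adjusted p = 0.0153), ITGB1BP2 by 1.28 ± 0.28 (adjusted p = 0.0129) and ITGA6 by 0.84 ± 0.19 (adjusted p = 0.0121). ITGB4 changed by -3.57 ± 0.54 (adjusted p = 0.00465) and LAMA3 by -2.89 ± 0.53 (adjusted p = 0.00985). Epidermal markers stood at 781 and 1222 CPM in wild type at E41 and at 32.99 and 36.98 CPM at E62, and their part in these falls was not tested. The count of rises was 2 without WT E41 replicate 2 or without WT E62 replicate 2, and of falls 5 without WT E62 replicate 1. Those 3 rises lost their calls in such fits: ITGA7 without WT E41 replicate 2 (adjusted p = 0.0714) or WT E62 replicate 2 (0.0685), ITGA6 without the same libraries (0.0579 and 0.0586), and ITGB1BP2 without WT E41 replicate 1 (0.068), WT E41 replicate 2 (0.0573) or WT E62 replicate 2 (0.0504). Their lowest adjusted p over alternatives were 2.03e-06, 9.9e-05 and 8.23e-06.

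In the knockout 11 of the 38 genes changed between the stages (28.9%, against 30.1% of all genes), with 6 higher and 5 lower (12.1% and 18.0% of all genes). ITGB1, ITGB2, ITGB3, ITGB5, ITGB6, ITGB7 and ITGB8, all beta chains but ITGB4, were among the 11. ITGA7 rose here too, by 1.28 ± 0.32 (adjusted p = 0.028), and its change was not shown to differ from that in wild type (-0.13 ± 0.44, adjusted p = 0.856). The call was lost without KO E41 replicate 1 (adjusted p = 0.116) or KO E41 replicate 2 (0.144) and with only the groups compared (0.0661), from 1.58e-05 over all alternatives. edgeR called 0 rises and 2 falls without KO E41 replicate 1 and likewise without KO E41 replicate 2, where 6 and 4 rises had an unadjusted p under 0.05. It called 1 rise and 3 falls without KO E62 replicate 2. DESeq2 on all libraries called 7 rises and 8 falls. ITGA8 was the single gene of the 11 whose call held in every alternative. The test of the difference between stages is the same as that of the change over time between genotypes, and 10 of the 38 genes passed it (26.3%, against 26.8% of all genes), with 5 in each direction (11.2% of all genes above 0 and 15.5% below). It was passed by ITGA6, ITGB6, ITGB8, LAMA5 and LAMB2 below 0 and by ITGA8, ITGAL, ITGB4, LAMA1 and LAMC3 above 0. The count above 0 was 3 without KO E41 replicate 1 or WT E62 replicate 2, and 2 without KO E41 replicate 2 or WT E62 replicate 1. Below 0, 3 genes passed when WT E41 replicate 1 was left out. When WT E41 replicate 2, KO E41 replicate 1 or WT E62 replicate 2 was, 2 passed.

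Partners of the laminins in the basement membrane were split as well. Of 23 genes, 6 were higher and 2 lower at E41 (18.5% and 20.8% of all genes) and 6 higher and 5 lower at E62 (21.0% and 26.2% of all genes), with medians of 0.48 and -0.18. COL4A6 and COL4A5, alpha chains of type IV collagen, changed by 0.84 ± 0.23 and 0.58 ± 0.17 at E41 and by 4.27 ± 0.27 and 2.53 ± 0.18 at E62 (adjusted p = 2.61e-05 and 3.43e-05 at E62). COL4A4 went from 2.55 ± 0.62 (adjusted p = 0.014) to -3.56 ± 0.62 (adjusted p = 0.00241), sizes that depend on few counts. It was scarce, with 4 and 10 counts in WT E41 and 95 and 80 in KO E41. At E62 it had 66 and 56 counts in wild type and 5 and 14 in the knockout. AGRN, the laminin-binding organiser of the neuromuscular junction, rose by 1.33 ± 0.19 and 1.36 ± 0.19, and FREM2, an epithelial basement membrane protein, was lower (-1.48 ± 0.40 and -2.97 ± 0.42).

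Of 16 genes of dystroglycan, its glycosylation and other laminin receptors, 2 were higher and 5 lower at each stage, where 39.2% of all genes passed at E41 and 47.2% at E62, with medians of 0.08 and -0.32. DAG1, dystroglycan itself, changed by -0.69 ± 0.14 at E41 (adjusted p = 0.00666) and -1.91 ± 0.14 at E62 (adjusted p = 4.01e-05). B3GALNT2 and POMGNT1, enzymes that build its laminin-binding sugar, changed by -1.74 ± 0.10 and -1.02 ± 0.10 at E62. RPSA, a ribosomal protein also known as a laminin receptor, was lower at E41 (-0.83 ± 0.15). LARGE2, which extends that sugar in epithelia, rose by 1.43 ± 0.47 and 2.30 ± 0.49. Of 32 adhesion adaptors, 8 were higher and 7 lower at E41 and 11 higher and 15 lower at E62, beside the same shares of all genes, with medians of 0.18 and 0.19. TLN2, the talin of striated muscle, changed by -1.05 ± 0.12 and -1.99 ± 0.13, and the muscle filamin FLNC by -0.63 ± 0.17 and -2.58 ± 0.18. LIMS2 changed by -1.14 ± 0.20 and -2.54 ± 0.20, and its binding partner ILK, the integrin-linked kinase, by -0.59 ± 0.10 and -1.04 ± 0.10. TNS3 (1.18 ± 0.15 and 1.40 ± 0.15) rose at both stages and the actinin ACTN1 (0.91 ± 0.10) at E62. FERMT3 and PARVG, the kindlin and parvin of blood cells, named here after their values were seen, rose at E62 by 1.97 ± 0.32 and 2.05 ± 0.37, beside the leukocyte markers given above.

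Of 24 ligands outside the basement membrane, 4 passed at E41, all higher (18.5% of all genes were higher), and 9 were higher and 5 lower at E62 (21.0% and 26.2% of all genes), with medians of 0.38 and 0.52. LTBP1, which stores latent TGF-beta, rose by 0.94 ± 0.20 and 1.37 ± 0.20, and FBN1 (1.22 ± 0.22), FBN2 (1.16 ± 0.22) and osteopontin SPP1 (2.59 ± 0.43) rose at E62. TGFBI, an adhesion protein of the matrix, was lower at E62 (-0.85 ± 0.21). LTBP3 rose at E41 (0.92 ± 0.21) and fell at E62 (-0.61 ± 0.20). Of 10 tetraspanins and other integrin partners, 1 was higher and 3 lower at E41, and 3 were higher and 3 lower at E62. Of all genes 39.2% passed at E41 and 47.2% at E62. The medians of the list were 0.02 and 0.13. CD82 changed by -0.48 ± 0.12 and -1.98 ± 0.13, ADAM12, a metalloprotease of muscle and mesenchyme, was lower at E41 (-1.06 ± 0.09), CD151, the tetraspanin bound to laminin receptors, fell at E62 (-0.73 ± 0.09), and CD81 rose at E41 (0.78 ± 0.12) and fell at E62 (-0.37 ± 0.12).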

How the data were processed

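Values are the authors' deposited estimated counts for each gene, before any normalization. Kallisto, DESeq2, Sscrofa11.1 and susScr11 are named, per the submitters' processing notes, without role or version. Sources used here do not state the annotation release, the rounding or the strand handling, so overlapping and antisense genes cannot be told apart. One protocol label dates the later stage E60. Symbols from a table of Ensembl identifiers matched 15527 of 22516 rows.

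Counts were rounded, filtered with filterByExpr (minimum count 10, 17020 genes kept) and scaled by TMM. The edgeR 4.0.16 model (R 4.3.3) held 4 group means over 8 libraries, with robust quasi-likelihood dispersion. Its two-sided F tests had 4 residual degrees of freedom, Benjamini-Hochberg adjustment over all genes and a threshold of 0.05. A standard error is the change divided by the square root of F. Replicate libraries differed by more than sampling noise (28.2 to 61.9 as chi-square over its degrees of freedom). Members, lists and naming rule were chosen with earlier results of these data known. Values are given for up to 4 called genes per role and, in each list, for the 4 with the lowest p, plus at most 2 whose call opposes most of the list; further members are named for completeness. Alternatives were DESeq2 1.42.0, relative log expression factors, library size alone, no filter, 1 CPM in 4 libraries, only the groups compared, a replicate block, and each library left out, its lone partner being assumed to vary like the other groups. On data simulated for E41 (16759 genes), 30, 40, 47 and 48 of 50 genes changed 2-, 4-, 8- and 16-fold were recovered, with 21 calls among 16559 unchanged genes. Few genes changed in that simulation, whereas 39.2% of genes passed in the E41 data. These rates therefore need not apply to the tests above. Positions are RefSeq's (Sscrofa11.1), matched by symbol for 38 of 38 genes. One item is counted with the members and not reported here.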

Additional observations from a re-analysis of the deposited data

Results flagged for a closer look

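The effect of the knockout differed between E41 and E62 for 10 genes by edgeR's test of the difference itself. The difference, as the log2 change at E62 minus that at E41, was -1.78 for LAMB2, -1.86 for ITGB8, 1.73 for ITGA8 and 1.85 for LAMC3, and these 4 held in all 14 alternatives. It was 1.70 for LAMA1, 3.10 for ITGB4, -4.04 for ITGB6 and -2.37 for LAMA5, each lost without at least 3 of the 8 libraries. For ITGA6 it was -0.87 (adjusted p = 0.0498), lost in 10 of 14 alternatives. For ITGAL it was 0.60 (adjusted p = 0.0298), lost without any one of 7 of the 8 libraries, all but WT E41 replicate 2.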

How the results depend on the processing

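Of 69 calls on the 38 genes that the text uses, 33 held under every alternative, 36 were lost under at least 1, of which 20 only when a library was left out, and 0 changed sign. DESeq2 lost 0 of them. Genes called higher at E41 numbered 12 with library size alone and 11 with DESeq2, against 7. Left-out libraries gave 4 to 8 higher and 2 to 5 lower at E41. For the difference between stages DESeq2 called 10 above 0, and left-out libraries 2 to 6 above and 2 to 4 below. From E41 to E62 left-out libraries gave 2 to 5 rises and 5 to 7 falls in wild type, and 0 to 4 rises and 2 to 6 falls in the knockout, where DESeq2 called 8 falls. Over left-out libraries the E62 change of LAMB3 ran from -0.80 to 2.07 and the knockout stage change of ITGA3 from -2.05 to 0.96. Same-numbered libraries did not deviate together (r -0.122 to 0.081, -0.122 between WT E41 and KO E41, -0.009 between WT E62 and KO E62), so the numbers were not taken as pairs. A replicate block lost 13 of the 69 calls, left 3 genes below 0 in the difference between stages and 3 rises and 3 falls in the knockout, and gave -0.09 for the ITGA3 stage change. With 2 libraries a group, smaller changes can go uncalled. In the E41 simulation 30 of 50 genes changed 2-fold were recovered, but far fewer genes changed there than passed in the data. The standard errors of ITGA3 (1.02) and LAMB3 (0.96) at E62 exceeded those of the scarce ITGB7 (0.55) and LAMB4 (0.64).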

Other observations

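Some members lie next to each other in the RefSeq annotation of Sscrofa11.1. On chromosome 16, ITGA1 and ITGA2 are 26322 bases apart, and at E62 ITGA2 was higher in the knockout (1.40 ± 0.24) while ITGA1 overlapped between genotypes, at 29.1 and 53.2 against 36.3 and 39.6 CPM. LAMB1 and LAMB4, 30599 bases apart on chromosome 9, had separate calls at E62, where LAMB4 was lower in the knockout and LAMB1 did not pass; the difference between neighbours was not tested.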
